A study of Mus musculus with 4 samples.

Results

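CD8 T cells from tumors treated with anti-PD-L1 were set against CD8 T cells from tumors treated with oxaliplatin alone. They were chosen by transcripts, as barcodes with at least 500 genes, at most 10% mitochondrial UMIs, at least 1 UMI of Cd3d, Cd3e and Cd3g together, at least 1 of Cd8a and Cd8b1, at most 1 of C1qa, C1qb and C1qc, and none of Siglech. A UMI is the molecular tag that stands for 1 captured RNA molecule. The rule kept 1021 of 1642 barcodes (62.2%) in the anti-PD-L1 library (aPD-L1) and 856 of 1426 (60.0%) in the oxaliplatin library (Oxali), which is 1877 of the 5508 barcodes of the series. These 2 libraries shared 0 barcodes.

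The cells were CD3+ CD8+ tumor-infiltrating cells sorted from tumors that male FVB mice carried under the skin. The tumor line was Myc-CaP, a Myc-driven line of mouse prostate cancer. Treatment was weekly and intraperitoneal for 3 to 4 weeks. The aPD-L1 mice received 10 mg/kg of an antibody that blocks PD-L1, and the Oxali mice received the platinum drug oxaliplatin at 6 mg/kg. Another library (Combo) came from mice given both, and the last (Ctrl) from mice left untreated. All 4 groups carried the same tumor line, and the age of the mice and the number of mice behind a library are not given in the sources used here. Each group was 1 library, so no difference has a replicate check, the treatment and the library cannot be told apart, and no test was possible.

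CD8 T cells kill target cells with perforin and granzymes and secrete cytokines such as interferon gamma once their T-cell receptor binds peptide on MHC class I. Activated and chronically stimulated cells display inhibitory receptors, and PD-L1 holds them back through PD-1, the product of Pdcd1. Naive and memory cells instead express genes for recirculation and quiescence. Oxaliplatin crosslinks DNA and disturbs ribosome production, and DNA damage can activate p53 target genes.

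The kept barcodes held 3661571 UMIs in aPD-L1 and 3152447 in Oxali, with medians of 2782 and 2794 UMIs a barcode. Ribosomal protein genes took 33.5% and 34.6% of the UMIs. Levels are CPM (counts per 1e6 UMIs of all kept barcodes of a library summed). A ratio is the CPM of aPD-L1 over that of Oxali, and brackets hold 95% exact intervals, which cover counting error only and not the spread between mice or cells. A gene was called when its ratio was past 1.5-fold and the interval left out 1. A sum cannot tell fewer cells of a type apart from less RNA per cell.

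The label fitted the markers of T cells. The 8 T cell markers summed to 7850 CPM in aPD-L1 and 7350 CPM in Oxali, although 3 of them, and both CD8 markers, chose the barcodes. Markers of mast cells and of erythroid cells were at 0 in both libraries, and those of neutrophils summed to 1.91 and 2.22 CPM. The sorted cells were not free of myeloid RNA. The 13 macrophage and monocyte markers summed to 1030 CPM in aPD-L1 and 1100 CPM in Oxali, and 11.2% and 11.9% of barcodes held at least 3 UMIs of them. The 5 MHC class II markers summed to 980 CPM in aPD-L1 and 1550 CPM in Oxali. Just inside the C1q limit of the rule, 143 barcodes in aPD-L1 and 131 in Oxali held 1 such UMI and were kept. Just outside it, 50 and 53 held 2 and were left out.

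Of 7772 genes with at least 50 UMIs in the pair of libraries, 140 were called higher in aPD-L1 (1.80%) and 165 lower (2.12%), and 94.3% lay within 1.5-fold. Past 2-fold there were 31 higher and 54 lower genes. Over all genes the log2 ratio had a median of 0.02. Genes for granzyme B, interferon gamma, inducible HSP70 and inhibitory receptors were among the higher genes, and Gzmk and naive or memory genes among the lower. Macrophage genes stood on both sides. A single barcode held more than 20% of the UMIs in aPD-L1 for 15 of the higher genes, and in Oxali for 37 of the lower genes.

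**Figure D1:**
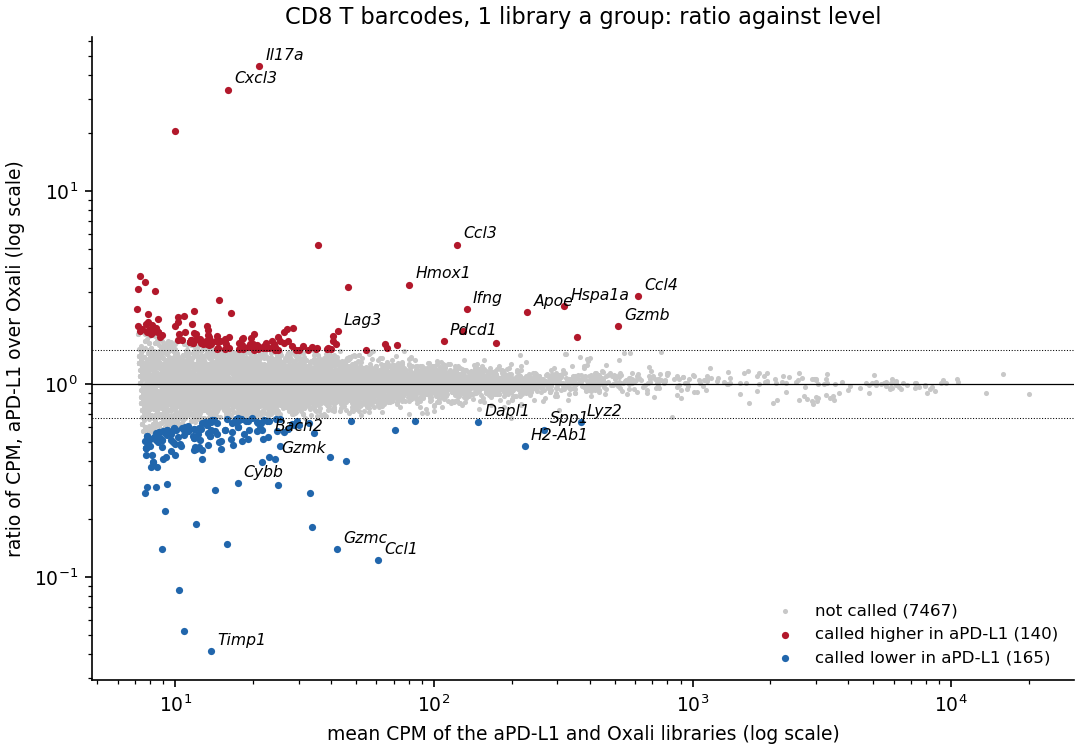
Ratio of CPM, aPD-L1 over Oxali, against the mean CPM of the pair of libraries, both on log scales, for 7772 genes with 1 library a group. Red points are the 140 genes called higher, blue points the 165 called lower, and dotted lines mark 1.5-fold; the ratios of Il17a and Cxcl3, which had 0 UMIs in Oxali, were computed against a floor of 3 UMIs. Most called genes had low levels, while Gzmb, Ccl4, Hspa1a and Apoe stood out at higher ones.

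The sequences at the start sites of 5 higher genes are shown from the RefSeq promoter table (GRCm38.p6), as 250 bases before and 50 bases after the annotated start, 5′ to 3′. Hspa1a and Hspa1b encode the stress-inducible HSP70 chaperones and are close copies, which is why both windows are given. The Hspa1a window lies at chr17:34972107-34972406 and the Hspa1b window at chr17:34959189-34959488, both on the minus strand. They were identical at 98.7% of 300 positions, and capitals mark the 4 bases that differ.
Hspa1a: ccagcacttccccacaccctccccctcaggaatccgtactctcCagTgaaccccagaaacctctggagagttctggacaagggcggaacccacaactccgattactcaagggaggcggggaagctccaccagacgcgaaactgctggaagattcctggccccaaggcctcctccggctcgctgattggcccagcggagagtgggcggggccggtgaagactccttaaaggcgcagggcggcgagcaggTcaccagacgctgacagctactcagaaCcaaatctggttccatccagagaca
Hspa1b: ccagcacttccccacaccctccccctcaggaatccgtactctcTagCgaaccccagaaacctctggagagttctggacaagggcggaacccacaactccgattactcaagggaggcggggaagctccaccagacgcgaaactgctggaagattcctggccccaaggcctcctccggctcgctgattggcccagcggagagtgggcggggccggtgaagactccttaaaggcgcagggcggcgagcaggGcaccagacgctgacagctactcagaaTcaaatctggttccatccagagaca
The windows do not show the 3′ ends that the assay counted, and reads could be split between such copies, so the sum of both is given with the single values below.

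Gzmb, Havcr2 and Tnfsf14 are shown as examples of called genes whose windows held an AP-1 site, the element bound by Fos and Jun proteins. Among named genes called higher, 5 of 24 matched genes held one (also Klrc2 and Sdcbp2), and among those called lower, 2 of 19 (Cybb and H2-DMb1). The search used TGANTCA, which reads the same on both strands, and capitals mark the match. Its first base lay at -58 from the start in Gzmb (chr14:56262285-56262584, minus strand), at -200 in Havcr2 (chr11:46454681-46454980, plus strand) and at -160 in Tnfsf14 (chr17:57194132-57194431, minus strand).
Gzmb: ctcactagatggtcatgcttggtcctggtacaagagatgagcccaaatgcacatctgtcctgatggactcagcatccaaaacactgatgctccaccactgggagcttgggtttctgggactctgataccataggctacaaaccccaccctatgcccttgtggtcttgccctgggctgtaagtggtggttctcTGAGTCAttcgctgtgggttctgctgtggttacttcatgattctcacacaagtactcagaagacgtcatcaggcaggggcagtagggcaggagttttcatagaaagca
Havcr2: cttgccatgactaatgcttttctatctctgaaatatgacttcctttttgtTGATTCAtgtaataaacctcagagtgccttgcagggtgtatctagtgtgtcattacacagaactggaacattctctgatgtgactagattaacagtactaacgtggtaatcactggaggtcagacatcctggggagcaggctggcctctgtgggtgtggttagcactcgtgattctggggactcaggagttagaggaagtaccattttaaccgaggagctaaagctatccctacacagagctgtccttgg
Tnfsf14: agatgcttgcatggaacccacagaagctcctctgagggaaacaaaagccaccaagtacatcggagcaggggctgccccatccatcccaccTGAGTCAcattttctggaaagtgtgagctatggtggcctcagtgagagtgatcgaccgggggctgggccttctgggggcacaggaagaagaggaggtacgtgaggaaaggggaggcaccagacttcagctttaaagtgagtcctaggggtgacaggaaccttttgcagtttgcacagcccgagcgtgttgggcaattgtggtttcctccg
A match is only a match of letters. AP-1 letters were in 10.0% of the 140 windows of genes called higher (109 of 140 genes matched) and in 5.81% of the 155 windows of genes called lower (123 of 165 matched). They were in 4.71% of windows of all tested genes (6188 of 7772 matched) and in 7.81% of all 32851 promoters.

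Other elements were counted the same way, on both strands. The heat shock element GAANNTTCNNGAA was in 0 of the windows of called genes, Hspa1a, Hspa1b and Dnajb1 included, in 0.603% of all promoters and in 0.572% of windows of all tested genes, while 5 of 21 windows of the chaperone list held it. The interferon-stimulated response element GAAANNGAAA was in 7.14% of windows of higher genes, 2.58% of windows of lower genes, 3.47% of windows of all tested genes and 3.44% of all promoters, against 27 of 48 windows of the interferon list. The E2F element TTTNGCGC was in 4.29% of windows of higher genes, 3.23% of windows of lower genes, 2.92% of windows of all tested genes and 1.38% of all promoters, and in 4 of 24 windows of the proliferation list. The fixed letters of no element contain those of another.

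Effector genes were split, with granzyme B and cytokines higher in aPD-L1 and granzyme K lower. Of 25 effector genes tested, 4 were called higher (Ifng, Gzmb, Tnf and Gzmm) and 1 lower (Gzmk), with a median log2 ratio of 0.17 beside 0.02 over all genes. Gzmb (chr14:56258838-56262260, minus strand), the granzyme that starts apoptosis in target cells, had 2509 UMIs in aPD-L1 and 1080 in Oxali. That is 685 CPM [659, 713] in aPD-L1 against 343 CPM [322, 364] in Oxali, a ratio of 2.00 [1.86, 2.15]. Combo had 1250 CPM and Ctrl 463 CPM, so Oxali was the lowest of the 4 libraries. Gzmb was concentrated in few barcodes: the top 5% held 68.2% of its UMIs in aPD-L1 and 72.5% in Oxali. Barcodes with a Gzmb UMI held 9.16 such UMIs on average in aPD-L1 and 6.28 in Oxali. Gzmc, a neighboring granzyme gene, went the other way at 10.4 CPM in aPD-L1 and 74.2 CPM in Oxali, but 1 Oxali barcode held 48.7% of its UMIs. Gzmb to Gzmf together had a ratio of 1.66 [1.56, 1.78].

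Ifng (chr10:118441046-118445892, plus strand), the gene of interferon gamma, stood at 190 CPM in aPD-L1 and 77.7 CPM in Oxali, a ratio of 2.45 [2.11, 2.84]. Oxali was again the lowest library, with 271 CPM in Combo and 343 CPM in Ctrl, although 1 barcode held 48.0% of the Combo UMIs. Without the top barcode of each library its ratio was 2.28. Tnf, the gene of tumor necrosis factor, had 37.7 CPM in aPD-L1 and 19.4 CPM in Oxali, and its ratio of 1.95 [1.43, 2.68] became 1.53 without the top barcodes. Gzmm, another granzyme, had 34.4 CPM in aPD-L1 and 18.4 CPM in Oxali, with 12.3 CPM in Combo and 16.6 CPM in Ctrl, so here aPD-L1 was the high library.

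Gzmk, a granzyme typical of early effector and memory CD8 cells, was at 14.2 CPM in aPD-L1 against 34.6 CPM in Oxali, a ratio of 0.411 [0.289, 0.577]. Combo and Ctrl, at 27.7 and 33.9 CPM, were close to Oxali, and aPD-L1 was the low library. After thinning each barcode to 1500 UMIs the Gzmk ratio was 0.694. Gzma was not called, at 84.1 CPM in aPD-L1 and 116 CPM in Oxali (ratio 0.725 [0.621, 0.845], and 0.445 among barcodes with no UMI of C1q genes, Lyz2, Apoe or Cd74). Prf1, the gene of perforin, differed by less than its counting error, at 122 CPM in aPD-L1 and 109 CPM in Oxali (1.11 [0.965, 1.29]). Tbx21, a transcription factor of effector cells, likewise had a ratio of 1.21 [0.935, 1.58].

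Among chemokine genes of T cells, Ccl3 and Ccl4 were higher in aPD-L1 and Ccl1 and Cxcl16 lower. These 4 were the called genes of 11 tested. Called higher and lower were 18.2% each, beside 1.80% and 2.12% over all genes, and the median log2 ratio was -0.20. Ccl3 and Ccl4, inflammatory chemokines of activated T cells, had 206 and 908 CPM in aPD-L1 against 39.0 and 319 CPM in Oxali, ratios of 5.29 [4.37, 6.46] and 2.85 [2.65, 3.06]. One aPD-L1 barcode of 20986 UMIs held 36.1% of the Ccl3 UMIs and 34.3% of the Ccl4 UMIs, and was also the top barcode of Ifng. It held 1 UMI of Lyz2, Apoe and Cd74 together. Without the top barcodes the ratios were 4.67 for Ccl3 and 2.31 for Ccl4, and among barcodes with no UMI of C1q genes, Lyz2, Apoe or Cd74 they were 1.25 and 1.16. Ctrl stood at 216 and 938 CPM, near aPD-L1, and Combo at 91.5 and 520 CPM. Ccl1 was lower at 13.4 CPM in aPD-L1 against 108 CPM in Oxali, seen in only 9 and 11 barcodes, with 46.8% of the Oxali UMIs in 1 barcode. Cxcl16, also a product of myeloid cells, had a ratio of 0.599, with 91.7% of its aPD-L1 UMIs and 88.4% of its Oxali UMIs in barcodes with at least 3 UMIs of Lyz2, Apoe and Cd74. Xcl1 was not called (0.794), and its ratio without the top barcodes was 1.000.

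In each library, Ccl4 was seen in a higher share of the barcodes with an Ifng UMI than of the others. In aPD-L1, 100 of 187 barcodes with an Ifng UMI also held Ccl4 (53.5% [46.1, 60.8]), against 18.0% of the others. In Oxali the shares were 38 of 93 (40.9% [30.8, 51.5]) and 16.6%. Barcodes with Ifng were deeper in both libraries, with medians of 3502 and 2727 UMIs with and without it in aPD-L1, and 3418 and 2681 in Oxali. The part of depth in these shares was not tested.

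Of 16 genes of checkpoint receptors and exhaustion tested, 6 were called higher in aPD-L1 (Lag3, Havcr2, Ctla4, Pdcd1, Rgs16 and Tox), 1 lower (Cd200r1) and 9 not called. The 6 were 37.5% of the list and the 1 was 6.25%, beside 1.80% and 2.12% over all genes. The ratio was above 1 in 11 of the 16 genes and below 1 in 5, and the median log2 ratio was 0.28. Pdcd1, the gene of PD-1, had 136 CPM [125, 149] in aPD-L1 and 81.8 CPM [72.2, 92.5] in Oxali, a ratio of 1.67 [1.43, 1.94], with 258 CPM in Combo and 87.2 CPM in Ctrl. Lag3, an inhibitory receptor that binds MHC class II, had 55.4 CPM in aPD-L1 and 29.5 CPM in Oxali (1.88 [1.46, 2.43]), with 85.5 CPM in Combo and 38.3 CPM in Ctrl. Both genes thus had one order over the libraries, Combo above aPD-L1 above Ctrl above Oxali, in which Ctrl and Oxali were close for Pdcd1. The CPM intervals of Pdcd1 in aPD-L1 and Oxali did not overlap.

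Ctla4, which competes for the costimulatory ligands CD80 and CD86, had 51.1 CPM in aPD-L1 and 30.5 CPM in Oxali (1.68 [1.30, 2.17]), while Ctrl had 63.7 CPM. The 5 CD4 and regulatory T cell markers, of which Ctla4 is one, summed to 75.7 CPM in aPD-L1 and 44.4 CPM in Oxali, with none of them at 0 in either library. Over 13 other settings the Ctla4 ratio ran from 1.20, among barcodes with no UMI of C1q genes, Lyz2, Apoe or Cd74, to 1.82, after thinning. The call was kept in 11 of them. One of these settings kept only barcodes with Cd8b1 and no UMI of Cd4, Trdc, Ncr1 or Foxp3 (865 in aPD-L1 and 729 in Oxali). The part of CD4 and regulatory T cells in the result was not tested further. Havcr2, the gene of TIM-3, was rarer, with 57 UMIs in aPD-L1 and 27 in Oxali (1.82 [1.13, 2.99]). Barcodes with at least 3 UMIs of Lyz2, Apoe and Cd74 held 26.3% of these in aPD-L1 and 33.3% in Oxali. The Havcr2 ratio was 1.15 among barcodes with no UMI of C1q genes, Lyz2, Apoe or Cd74, and the call was kept in 10 of 13 settings. Rgs16, a regulator of G protein signaling induced by activation, had 80.0 CPM in aPD-L1 and 51.7 CPM in Oxali, but without the top barcodes its ratio was 1.38. Cd200r1, an inhibitory receptor also of myeloid cells, had 6.01 CPM in aPD-L1 and 11.7 CPM in Oxali. Cd274, which encodes PD-L1 itself, did not differ beyond counting error, at 28.1 CPM in aPD-L1 and 28.9 CPM in Oxali (0.974 [0.728, 1.31]), and was at 26.5 CPM in Ctrl.

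Lag3 accompanied Pdcd1. In aPD-L1 61 of 166 barcodes with a Pdcd1 UMI held Lag3 (36.7% [29.4, 44.6]), against 7.37% of the others, and in Oxali 24 of 103 did (23.3% [15.5, 32.7]), against 4.52%. Gzmb was seen in 47.6% of Pdcd1 barcodes and 22.8% of the others in aPD-L1, and in 35.9% and 17.9% in Oxali. The Pdcd1 barcodes were deeper, with medians of 3413 UMIs against 2706 in the others in aPD-L1, and 3640 against 2697 in Oxali. The part of depth was not tested.

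**Figure D2:**
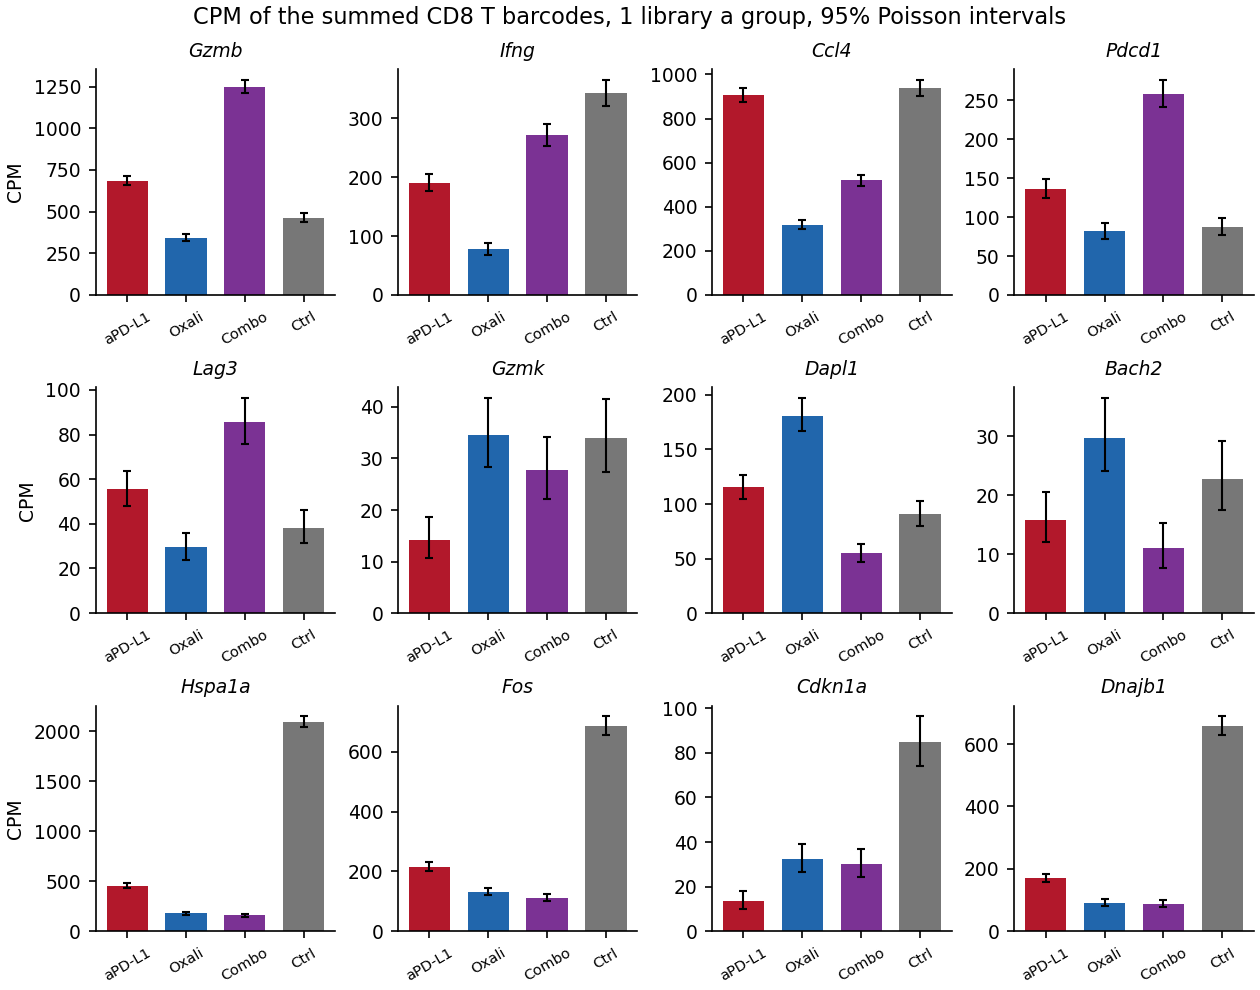
CPM of 12 genes in the summed CD8 T barcodes of aPD-L1, Oxali, Combo and Ctrl, 1 library each, as bars that start at 0 with 95% Poisson intervals. Gzmb, Pdcd1 and Lag3 were highest in Combo and lowest in Oxali, while Hspa1a and Fos were highest in Ctrl (2090 and 686 CPM).

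Among killer lectin-like receptors, a pair of genes was higher in aPD-L1. Klrc1 and Klrc2, which encode NKG2A and NKG2C and are close copies, had 88.5 and 80.3 CPM in aPD-L1 against 55.2 and 49.5 CPM in Oxali, and 1.61 [1.41, 1.85] as a joint ratio. NKG2A is inhibitory and NKG2C activating. Of 11 genes tested on this list, these 2 were the ones called (18.2%, beside 1.80% called higher over all genes). Klrk1, the gene of NKG2D, was not called, at 179 CPM in aPD-L1 and 134 CPM in Oxali. The 6 NK cell markers summed to 155 CPM in aPD-L1 and 180 CPM in Oxali, with none at 0.

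Of 22 naive and memory genes tested, 2 were called lower in aPD-L1 (Bach2 and Dapl1), none higher and 20 not called. The 2 were 9.09% of the list, beside 2.12% called lower over all genes. The ratio was under 1 in 20 of the 22 genes, with a median log2 ratio of -0.24. Dapl1, a gene of naive and memory CD8 cells, had 116 CPM [105, 127] in aPD-L1 and 181 CPM [167, 197] in Oxali, a ratio of 0.638 [0.561, 0.725]. Oxali was the highest of the 4 libraries, with 55.0 CPM in Combo and 91.3 CPM in Ctrl. Bach2, a repressor that keeps T cells quiescent, had 15.8 CPM in aPD-L1 and 29.8 CPM in Oxali (0.531 [0.376, 0.745]), with 22.8 CPM in Ctrl. Ccr7 and S1pr1, receptors for entry into and exit from lymph nodes, were not called but had intervals under 1, with ratios of 0.744 [0.656, 0.844] and 0.743 [0.633, 0.872]. Ccr7 was seen in 53.8% of Dapl1 barcodes in aPD-L1 and 54.6% of those in Oxali, against 22.4% and 26.0% of the other barcodes. Dapl1 barcodes were deeper, with medians of 3452 UMIs against 2640 in aPD-L1 and 3368 against 2550 in Oxali, and the part of depth was not tested.

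Of 26 proliferation genes tested, 24 had a ratio above 1. In aPD-L1, 3 were called higher (Cenpf, Aurkb and Cks1b) and none lower, which is 11.5% beside 1.80% called higher over all genes. The median log2 ratio of 0.43 was the highest of the 24 lists. Cenpf, a kinetochore protein gene, had 23.2 CPM in aPD-L1 and 13.3 CPM in Oxali (1.74 [1.19, 2.59]), in only 35 and 16 barcodes. Cks1b, a cofactor of cyclin-dependent kinases, had 38.2 CPM in aPD-L1 and 24.4 CPM in Oxali, and the mitotic kinase gene Aurkb had 14.2 and 8.56 CPM. Plk1 was the exception at the low end, at 0.583 with an interval that held 1 and 48.4% of its Oxali UMIs in 1 barcode. Without barcodes holding 2 or more UMIs of 6 mitotic genes, 950 of 1021 barcodes were left in aPD-L1 and 824 of 856 in Oxali. The ratios were then 1.52 [0.373, 23.9] for Cenpf and 1.19 [0.667, 2.14] for Cks1b, neither called. Aurkb was at 3.03, from a small count whose interval is not given here. Over the 13 settings Aurkb kept its call in 8. The list then had a median log2 ratio of 0.28. The 6 filter genes are members of this list, so a lower median is partly built into the filter. After thinning to 1500 UMIs the ratios were 5.83 for Cenpf, 1.32 for Cks1b and 1.11 for Aurkb. Thinning left only 1387500 UMIs in aPD-L1 and 1155000 in Oxali. Counts of these genes were then small and the intervals are not given here, so the size of these ratios is uncertain. Histone genes of replication were not called in 8 of 8 cases (over all genes 1.80% were called higher and 2.12% lower).

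Genes of HSP70 and its partner Dnajb1 were higher in aPD-L1, in many barcodes. Hspa1a (chr17:34969190-34972156, minus strand) had 457 CPM [435, 479] in aPD-L1 and 180 CPM [166, 196] in Oxali, a ratio of 2.54 [2.30, 2.79], with no barcode above 4.40% of its UMIs in either. Hspa1b had 455 CPM in aPD-L1 and 259 CPM in Oxali (1.76 [1.61, 1.91]), and the pair together had a ratio of 2.08 [1.95, 2.21]. Dnajb1, the HSP40 partner of HSP70, had 170 CPM in aPD-L1 and 90.4 CPM in Oxali (1.88 [1.63, 2.17]), and Hspbp1, a nucleotide exchange factor of HSP70, 35.5 and 18.4 CPM. Of 16 chaperone genes tested, these first 3 were called higher (18.8%, beside 1.80% over all genes) and none lower. Among the 16, 15 had a ratio above 1, and the median log2 ratio was 0.20. The Ctrl library stood far above both, at 2090 CPM of Hspa1a, 1570 of Hspa1b and 658 of Dnajb1, while Combo, at 160, 234 and 89.0 CPM, was near Oxali.

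Immediate early genes are transcribed within minutes of a stimulus. Fos, an immediate early gene and an AP-1 subunit, had 215 CPM in aPD-L1 and 132 CPM in Oxali (1.63 [1.44, 1.84]), with 112 CPM in Combo and 686 CPM in Ctrl. Atf3, induced by stress, went the other way, at 16.4 CPM in aPD-L1 and 34.3 CPM in Oxali, but 86.7% and 90.7% of its UMIs lay in barcodes with at least 3 UMIs of Lyz2, Apoe and Cd74, and its ratio was 1.10 among barcodes with no macrophage UMI. Of 23 immediate early genes tested these were the 2 called, 4.35% in each direction beside 1.80% higher and 2.12% lower over all genes. Hspa1a and Fos were seen together: Fos was in 41.4% of Hspa1a barcodes of aPD-L1 and 45.0% of those of Oxali, against 17.4% and 19.6% of the other barcodes. Hspa1a barcodes were deeper, with medians of 3220 UMIs against 2622 in aPD-L1 and 3424 against 2599 in Oxali, and the part of depth was not tested. Leaving out barcodes with 10 or more UMIs of Hspa1a, Hspa1b and Dnajb1, which left 890 of 1021 in aPD-L1 and 825 of 856 in Oxali, gave 1.31 for Fos, 1.79 for Hspa1a, 1.16 for Hspa1b and 1.49 for Dnajb1. The filter acts on the 3 chaperone genes themselves, so lower ratios of these are built into it. Gzmb was at 2.06 and Pdcd1 at 1.70.

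**Figure D3:**
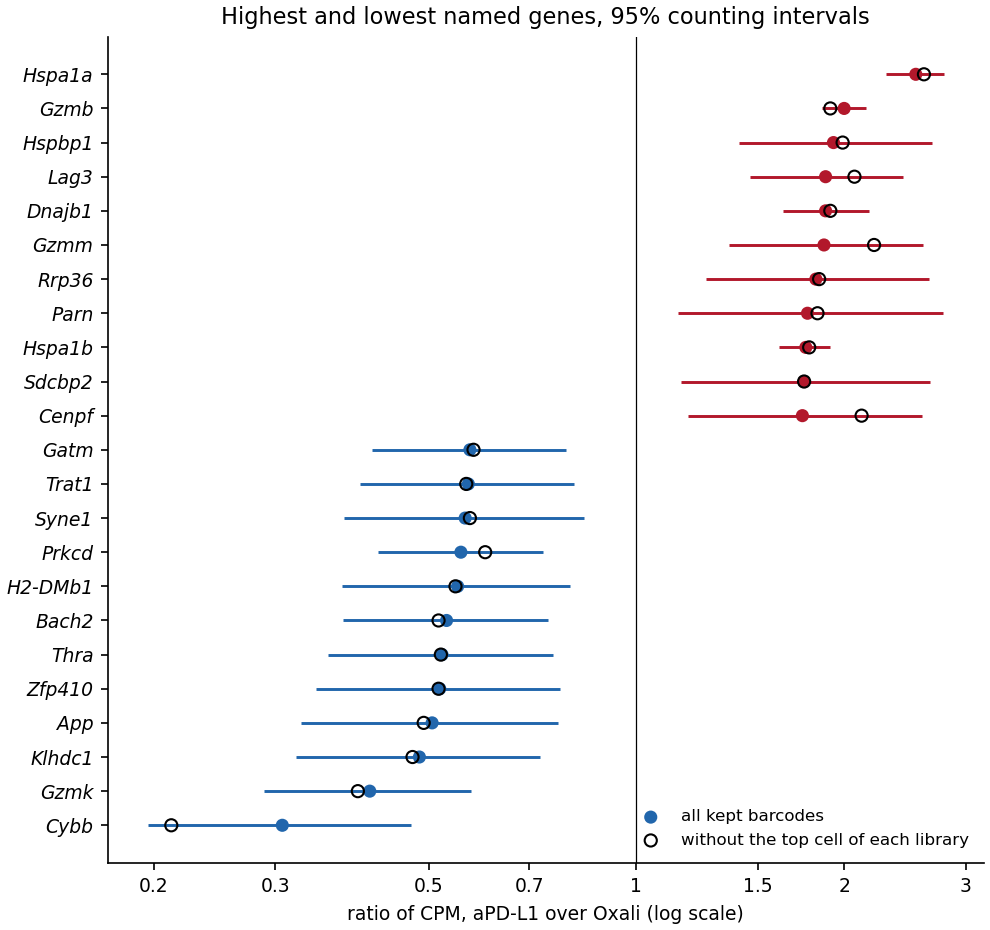
Ratio of CPM, aPD-L1 over Oxali, on a log scale for 11 of the highest and the 12 lowest genes chosen by the rule for named genes, with lines for 95% counting intervals. Filled points use all kept barcodes of the 1 library a group, and open circles leave out the barcode with the most UMIs of that gene in each library; Hspa1a at 2.54 and Cybb at 0.307 are the ends.

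The other genes at the upper end were of low level and mixed role. Rrp36, which takes part in processing of ribosomal RNA, had 25.9 CPM in aPD-L1 and 14.3 CPM in Oxali. Parn, a poly(A) ribonuclease, had 18.6 and 10.5 CPM, and Sdcbp2, the gene of syntenin-2, 20.5 and 11.7 CPM. All 3 had lower intervals of at least 1.15.

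The lower end held T cell genes beside genes of phagocytes. Trat1, an adaptor bound to the T-cell receptor, had 15.0 CPM in aPD-L1 and 26.3 CPM in Oxali (0.571 [0.398, 0.812]), with 26.7 CPM in Combo and 24.3 CPM in Ctrl. Thra, a thyroid hormone receptor, had 13.1 CPM in aPD-L1 and 25.1 CPM in Oxali (0.523 [0.358, 0.758]), but Ctrl was at 13.3 CPM, near aPD-L1. Klhdc1, a kelch domain gene, had 10.9 CPM in aPD-L1 and 22.5 CPM in Oxali, with 9.12 CPM in Combo and 14.7 CPM in Ctrl, so Oxali was the high library. Zfp410, a zinc finger gene, had 11.2 CPM in aPD-L1 against 21.6 CPM in Oxali and 21.1 and 24.3 CPM in Combo and Ctrl. The nuclear envelope gene Syne1 had a ratio of 0.565, and Prkcd, a protein kinase C, 0.557.

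Cybb, the phagocyte NADPH oxidase gene, App, H2-DMb1 of class II peptide loading, and Gatm of creatine synthesis had ratios of 0.307, 0.506, 0.551 and 0.574. Their UMIs lay mostly in barcodes with at least 3 UMIs of Lyz2, Apoe and Cd74, which held between 69.7% and 97.9% of them in each library. The ratio of Cybb was 1.01 with no C1q limit, and that of H2-DMb1 1.25 after thinning. Such barcodes were 98 of 1021 in aPD-L1 (9.60%) and 108 of 856 in Oxali (12.6%), and they held 16.1% and 20.9% of all UMIs. The same barcodes held over 50% of the Oxali UMIs of 43 of the 165 lower genes and over 50% of the aPD-L1 UMIs of 16 of the 140 higher genes. For Gzmb they held 7.17% in aPD-L1 and 16.2% in Oxali, for Pdcd1 13.4% and 24.4%, and for Hspa1a 19.2% and 28.7%. A setting with no UMI of C1q genes, Lyz2, Apoe or Cd74 allowed left out all of these barcodes. Gzmb was then at 1.73, and Gzmb, Pdcd1 and Hspa1a stayed called higher. Of all calls, 35 of 140 higher and 26 of 165 lower ones remained there, with 5850 genes tested. The setting also left fewer UMIs, 2034087 in aPD-L1 and 1491833 in Oxali, which widens intervals. Ratios stayed above 1 for 128 of the 140 higher genes and below 1 for 155 of the 165 lower genes. Genes under the floor of 3 UMIs in both libraries count as below 1 there. Beyond this setting, the part of these barcodes in the results was not tested.

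Among the macrophage genes themselves the direction was not uniform. Apoe, of lipid transport, had 323 CPM in aPD-L1 and 136 CPM in Oxali (2.37 [2.12, 2.66]), and Hmox1, of heme breakdown, 123 and 37.4 CPM (3.28 [2.67, 4.05]). Lyz2, of lysozyme, had 288 CPM in aPD-L1 and 450 CPM in Oxali (0.638 [0.589, 0.692]), and H2-Ab1, of MHC class II, 145 and 303 CPM (0.478 [0.429, 0.532]). Mrc1, the mannose receptor of macrophages, had 8 UMIs in aPD-L1 and 49 in Oxali, of which 61.2% were in 1 barcode. One Oxali barcode of 30374 UMIs, with 720 UMIs of Lyz2, Apoe and Cd74, was the top barcode of 14 lower genes.

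Of 47 interferon response genes tested, 2 were called higher (4.26%, beside 1.80% over all genes) and none lower (2.12% over all genes). In a list of this size such counts are near those shares. The median log2 ratio was 0.10. Gbp6, a guanylate-binding protein gene induced by interferon gamma, had 11.7 CPM in aPD-L1 and 5.39 CPM in Oxali (2.18 [1.22, 4.07]), and Ifit1bl1 18.3 and 11.1 CPM (1.65 [1.08, 2.56]). Both belong to families of similar copies, so their assignment is uncertain. Ly6c2 and Ly6a, surface genes of activated and memory CD8 cells, were just under the call at 1.47 [1.39, 1.56] and 1.45 [1.35, 1.55], with 903 and 643 CPM in aPD-L1 against 613 and 444 CPM in Oxali. Ifitm1 was lower, at 37.7 CPM in aPD-L1 and 58.1 CPM in Oxali, with 27.3% of the Oxali UMIs in 1 barcode, its ratio without the top barcodes was 0.803, and after thinning it was 1.14.

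MHC class I presentation genes, which the study followed in tumor cells, were called in 0 of 22 cases in these T cells, with a median log2 ratio of 0.11 and ratios between 0.868 (Nlrc5, their transactivator) and 1.22 (Erap1, a peptide trimmer). NF-kB genes were called in 0 of 17 cases, with a median of -0.07. Over all tested genes only 1.80% were called higher and 2.12% lower, so 0 calls in such short lists is near that share. Ep300 and Crebbp, the acetyltransferase genes, had ratios of 0.812 [0.654, 1.01] and 0.821 [0.674, 0.999].

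Genes tied to DNA damage were not higher in Oxali as a list. Of 24 p53 targets and damage genes tested, 2 were called lower in aPD-L1 and none higher. The 2 were 8.33% of the list, beside 2.12% called lower over all genes, and the median log2 ratio was 0.11. Cdkn1a, which encodes the cell cycle inhibitor p21, had 13.7 CPM in aPD-L1 and 32.4 CPM in Oxali (0.422 [0.295, 0.598]), in 26 and 37 barcodes. Combo stood at 30.2 CPM and Ctrl at 84.7 CPM, above Oxali. Of its Oxali UMIs 73.5% lay in barcodes with at least 3 UMIs of Lyz2, Apoe and Cd74, and among barcodes with no macrophage UMI the ratio was 1.16 [0.535, 2.62]. Sesn1, a p53 target of metabolic control, had 13.4 CPM in aPD-L1 and 20.6 CPM in Oxali (0.649 [0.439, 0.955]). Nucleolus and ribosome biogenesis genes were called in 0 of 29 cases (1.80% higher and 2.12% lower over all genes), and their median log2 ratio was 0.09.

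Receptors and ligands of costimulation and cytokines gave single calls, where 1.80% of all tested genes were called higher and 2.12% lower. Tnfsf14, the gene of the ligand LIGHT, was seen in 34 barcodes of aPD-L1 and 15 of Oxali, at 9.56 CPM in aPD-L1 and 4.76 CPM in Oxali (2.01 [1.07, 3.96]). Il2ra, a chain of the IL-2 receptor, had 10.4 CPM in aPD-L1 and 5.71 CPM in Oxali (1.82 [1.01, 3.38]). Its ratio was 0.999 after thinning and 2.70 among barcodes with Cd8b1 and no UMI of Cd4, Trdc, Ncr1 or Foxp3. Il2ra is also on the CD4 and regulatory T cell list given above. Ifngr2, a chain of the interferon gamma receptor, had 11.5 CPM in aPD-L1 and 19.7 CPM in Oxali (0.583 [0.385, 0.877]), with 42.9% and 48.4% of its UMIs in barcodes with at least 3 UMIs of Lyz2, Apoe and Cd74. Tgfbr1, a TGF-beta receptor on the residency list, had 8.19 CPM in aPD-L1 and 15.5 CPM in Oxali (0.527). The glycolysis gene Hk2 had 5.19 and 10.8 CPM (0.481), with 61.8% of its Oxali UMIs in those barcodes and a ratio of 1.47 among barcodes with no macrophage UMI.

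The remaining lists had no called gene. Over all tested genes 1.80% were called higher and 2.12% lower, so few or no calls fall to lists of this size. T-cell receptor signaling had 0 of 21, homing receptors 0 of 14, Bcl2 family 0 of 11, nuclear oxidative phosphorylation 0 of 35 and cytoskeletal, galectin, S100 and annexin genes 0 of 25, with median log2 ratios between -0.04 and 0.20. Cxcr6, a receptor of tissue-infiltrating CD8 cells, was not called at 421 CPM in aPD-L1 and 340 CPM in Oxali (1.24 [1.15, 1.34]).

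**Figure D4:**
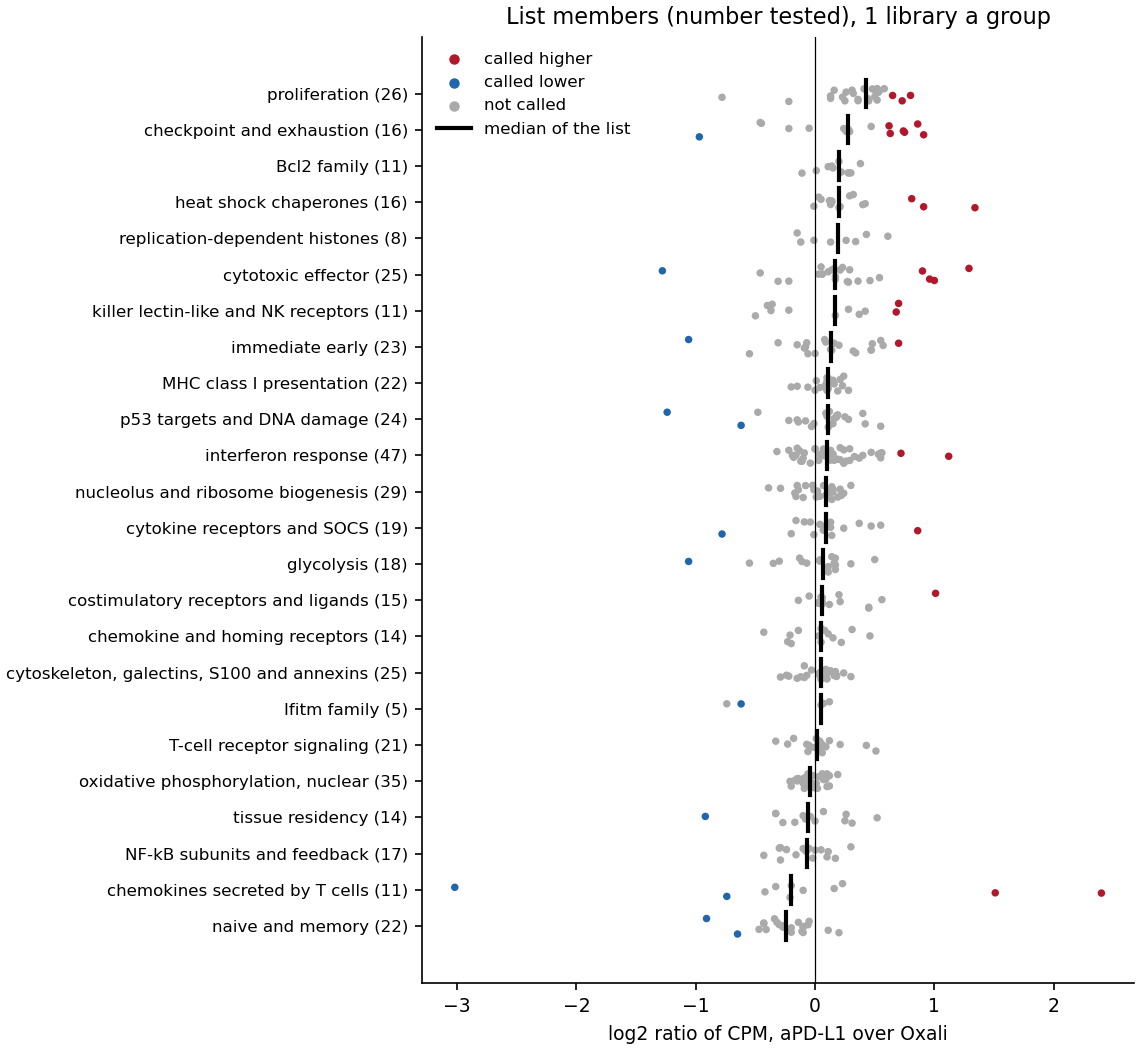
Log2 ratio of CPM, aPD-L1 over Oxali, for the tested members of 24 gene lists, with the number tested in parentheses and 1 library a group; vertical bars are list medians and colored points are called genes. The proliferation list had the highest median (0.43) and the naive and memory list the lowest (-0.24).

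Shares of barcodes with a transcript were compared at 1 depth. After each barcode was thinned to 1500 UMIs, 925 barcodes of aPD-L1 and 770 of Oxali remained, and 96 and 86 were too shallow. Gzmb was seen in 20.1% [17.6, 22.8] of them in aPD-L1 and 13.2% [10.9, 15.8] in Oxali (26.8% and 20.1% before thinning). Ifng was seen in 11.4% [9.38, 13.6] in aPD-L1 and 5.97% [4.41, 7.89] in Oxali (18.3% and 10.9%). Hspa1a was seen in 28.5% [25.6, 31.6] in aPD-L1 and 14.8% [12.4, 17.5] in Oxali (36.2% and 22.1%), and Dnajb1 in 20.1% and 11.2% (36.6% and 25.1%). In these 4 genes the intervals did not overlap. All 4 were called from sums of the same barcodes, so their shares are no separate support. How often such intervals lie apart over all tested genes is not given here.

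Dapl1 was seen in 12.1% [10.1, 14.4] of barcodes in aPD-L1 and 19.2% [16.5, 22.2] in Oxali (19.1% and 26.8% before thinning), and Ly6c2 in 50.7% [47.4, 54.0] and 39.2% [35.8, 42.8] (59.8% and 48.6%). Pdcd1 was seen in 10.6% [8.69, 12.8] in aPD-L1 and 7.66% [5.88, 9.77] in Oxali (166 of 1021 and 103 of 856 before thinning), where the intervals overlapped, and so did those of Ctla4, Bach2, Gzmk and Ccr7. Lag3 was seen in 5.95% [4.51, 7.67] in aPD-L1 and 3.12% [2.01, 4.60] in Oxali (12.1% and 6.78%), with intervals that just overlapped.

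A background came from barcodes with more than 1 C1q UMI and no UMI of CD3 or CD8 genes, a class that should lack T cell genes. Only 24 existed in the 4 libraries, with a median of 2332 UMIs against 2782 in aPD-L1 and 2794 in Oxali, and 17 reached 1500 UMIs. Ifng, Pdcd1, Lag3 and Dapl1 were in 0 of these 17, which allows a share of up to 19.5%. Gzmb was in 2 (11.8% [1.46, 36.4]), Ly6c2 in 3 (17.6%), Dnajb1 in 3 (17.6%) and Hspa1a in 4 (23.5% [6.81, 49.9]). With so few barcodes these intervals cover the shares of both libraries for Gzmb, Dnajb1 and Hspa1a, and that of Ly6c2 [3.80, 43.4] covers the Oxali share but not the aPD-L1 share. Apart from the aPD-L1 share of Ly6c2, those shares were therefore not separated from background. The shares of Ifng, Pdcd1, Lag3 and Dapl1 all lay under 19.5%, so they were not separated from it either. Macrophages can also express chaperones themselves.

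**Figure D5:**
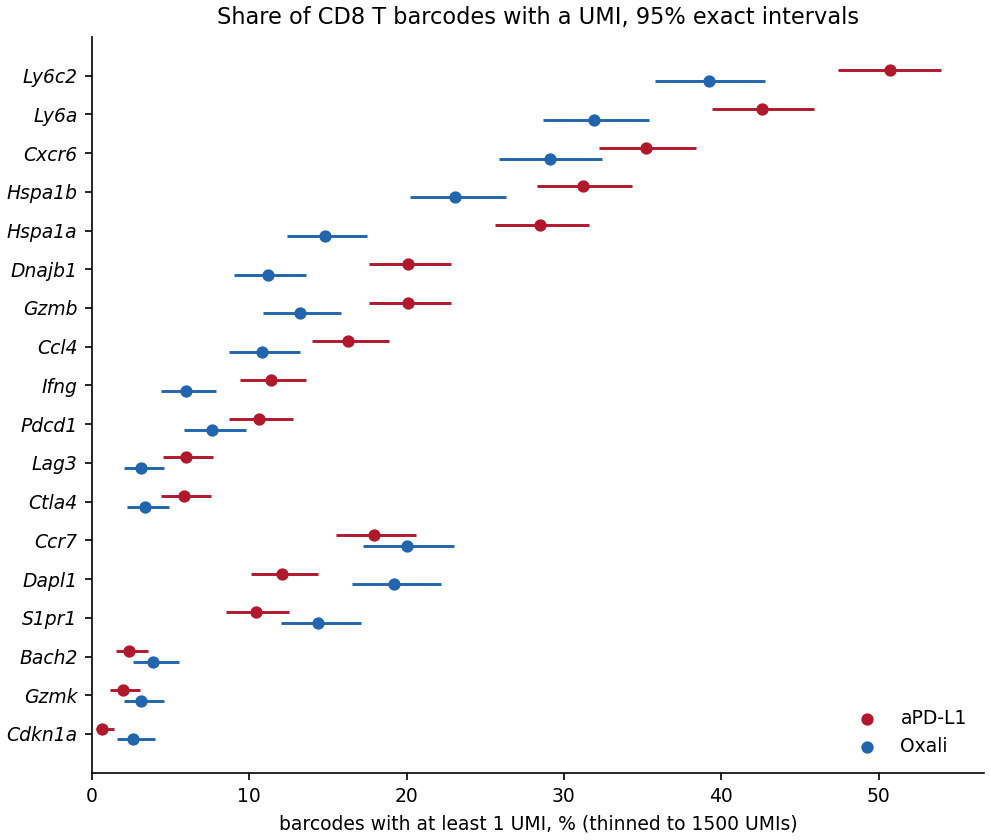
Share of CD8 T barcodes with at least 1 UMI of each gene after thinning to 1500 UMIs, with 95% exact intervals, for aPD-L1 (red) and Oxali (blue), 1 library each. Ly6c2, Hspa1a, Dnajb1, Gzmb and Ifng were seen in more aPD-L1 than Oxali barcodes, and Dapl1 in fewer, with intervals that did not overlap. The shares use the same barcodes as the ratios and are no separate support.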

How the data were processed

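Sorted CD3+ CD8+ cells were profiled with the Chromium 3′ kit, version 3, as 4 libraries. Alignment and counting by the authors used Cell Ranger 3.1.0 and mm10, according to their processing notes. The deposited values are raw UMI counts for 31053 genes, with barcodes already selected as cells and nothing normalized. The annotation release is not given in the sources used here. Gene positions came from GENCODE M21 (GRCm38), in which 159 of 159 named gene IDs matched.

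UMIs of barcodes kept by the rule were summed per library and scaled to CPM in Python 3.11.15 with scipy 1.17.1 and numpy 2.4.6, and plotted with matplotlib 3.10.9. A ratio carries a 95% exact Clopper-Pearson interval conditioned on both counts, and a CPM an exact Poisson interval. Genes needed 50 UMIs in the pair of libraries, and the 21 genes the rule used were left out of the tested set. For a ratio, a count under 3 UMIs in a library was set to a floor of 3 UMIs. Depth, 3661571 UMIs in aPD-L1 and 3152447 in Oxali, put that floor at 0.819 and 0.952 CPM. No p-value was computed, since cells of 1 library are not replicates. The steps were tested on simulated data with known fold changes. Scrublet (scanpy 1.11.5) was run per library. It marked 0.487% of aPD-L1 barcodes and 0 in Oxali, so it did not work here, and doublets were not removed.

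Named genes were the 12 highest and the 12 lowest by ratio, given 100 UMIs or more, seen in at least 20 barcodes of the higher library with no barcode over 20% of its UMIs there, leaving out hemoglobin, ribosomal protein and mitochondrial genes, segments of immunoglobulins and receptors, unnamed models and markers of other cell types. One of the highest is not reported here. Up to 6 members of each of 24 lists were added, those with the largest absolute log2 ratios and at least 50 UMIs. Also added were Gzma, Gzmb, Prf1, Tbx21, Pdcd1, Ifng and Cd274. Genes of macrophages, Gzmc, Tox, Il17a and the others named as concentrated in single barcodes were chosen after their values were seen. The comparison, the lists and these rules were chosen with earlier results of these data known. Alternatives changed the barcode filter, scaling, depth, gene filter and fold of a call, 1 at a time.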

Additional observations from a re-analysis of the deposited data

How the results depend on the processing

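The 140 higher and 165 lower calls depended on barcode choice and on counts. With no UMI of C1q genes, Lyz2, Apoe or Cd74 allowed (657 and 490 barcodes), 78 genes were lower and 123 higher. Of the calls, 35 and 26 remained higher and lower there, with 5850 genes tested and fewer UMIs. Ratios kept their direction for 128 of the 140 and 155 of the 165, where genes under the floor in both libraries count as below 1. Mean per-cell CPM gave 259 higher and 252 lower. Thinning to 1500 UMIs gave 93 and 65 with 4929 genes tested, a minimum of 100 UMIs 83 and 68, and a 2-fold limit 31 and 54. Higher genes were 45.9% of all calls, 42.1% with median-of-ratios scaling, 36.9% with totals free of ribosomal and mitochondrial genes (113 and 193), 61.2% without macrophage UMIs and 58.9% after thinning. Called ratios that crossed 1 were Cybb, 1.01 with no C1q limit; Atf3 1.10, Cdkn1a 1.16 and Hk2 1.47 without macrophage UMIs; Ifitm1, 1.53 by mean per-cell CPM and 1.14 after thinning; and H2-DMb1 1.25 and Il2ra 0.999 after thinning. The cause was not tested. Of 52 named genes called, 11 kept the call in all 13 settings (Gzmm, Lag3, Gzmb, Hspa1a, Klhdc1, Zfp410, Thra, Trat1, Ifng, Pdcd1 and Ccl1) and 7 crossed 1 in at least 1. Among the 13, leaving out Scrublet doublets dropped only 3 kept barcodes in aPD-L1 and 0 in Oxali, so it could hardly change a call. Median-of-ratios scaling and totals free of ribosomal and mitochondrial genes shifted every ratio by a common factor. Of 360 list medians, 12 changed sign. No paired analysis was possible because each group was 1 library.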

Other observations

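Some of the most extreme ratios came from single barcodes. Il17a, the cytokine gene of type 17 T cells, had 155 UMIs in 6 aPD-L1 barcodes and 0 in Oxali, at least 44.5-fold higher against a floor of 3 UMIs in the Oxali library, but 89.7% of them were in 1 barcode of 2965 UMIs. The same barcode held 25.4% of the Tnf UMIs of aPD-L1. The delta chain gene Trdc was not called, at 24.3 CPM in aPD-L1 and 33.6 CPM in Oxali. The chemokine gene Cxcl3 had 117 UMIs in aPD-L1, 98.3% of them in 1 barcode, and 0 in Oxali. Timp1, a protease inhibitor gene, had 4 UMIs in aPD-L1 and 83 in Oxali, 91.6% of them in 1 barcode.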
